A study of Mus musculus with 4 samples.

Results

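The regions described here were the narrow stretches of H3K27ac that both libraries of isolated mouse liver sinusoidal endothelial cells (LSECs) shared at the ends of protein-coding genes. H3K27ac peaks of replicates 2 and 3 were pooled, and peaks that overlapped by at least 1 bp were merged. A member was a merged region that held a peak of each library, was under 2000 bp wide, and lay within 1 kb of either end of a protein-coding gene body. Members were thus selected on the peak calls themselves, so that their width, their sharing, and their fold enrichment are given as a description, with no test. The rule found 8479 members among 64629 merged regions. They were 35.04% of the 24199 regions with a peak of each library and 94.3% of the 8987 such regions at a gene end. The other 508 shared regions at a gene end were 2000 bp or wider and are called broad.

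All 4 samples of the series were LSECs of 1 condition. H3K27ac was immunoprecipitated in 2 libraries, and 2 input libraries of the same numbers, made without an antibody, were not analysed here. The sample records give neither the genotype, the age, nor the treatment of the mice, and they do not state whether the libraries came from separate animals. In the study's methods, LSECs were isolated from mouse liver with CD146 microbeads and assayed to look for regulatory elements of *Col4a1* and *Col4a2*, which encode chains of type IV collagen. The methods name a tagmentation-based protocol, whereas the records describe sonication and a ligation-based kit. Peaks were called separately per library, 26975 in replicate 2 and 64498 in replicate 3, and the number of reads behind each list is unknown. The fold enrichment printed below is the authors' ratio of peak signal to background, and levels were ranked only within a library. No mean or SD is given over 2 libraries, and both values are printed instead.

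H3K27ac is the acetylated form of a lysine on the tail of histone H3, placed by the acetyltransferases p300 and CBP. It marks the nucleosomes that flank active promoters and active enhancers, whereas trimethylation of the same lysine marks repressed genes. Most promoters of genes that every cell uses lie in CpG islands, stretches rich in the dinucleotide CG, and carry binding letters for SP/KLF factors, NF-Y, or ETS factors rather than a TATA box. LSECs are the fenestrated endothelium of the liver and are known for scavenger receptors such as those encoded by *Stab1*, *Stab2*, and *Fcgr2b*. In fibrosis they lose fenestrae and signal to hepatic stellate cells (HSCs).

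Promoter letters are shown for the 4 members with the highest fold enrichment in replicate 3 that the promoter table holds, for the highest member of the ribosomal protein list (*Rpl37*) and of the endothelial transcription factor list (*Klf2*), and for 3 of the 4 LSEC markers known to have a member at the 5′ end. These are the 250 bases before the start, taken from the RefSeq table of build GRCm38.p6 and written 5′ to 3′ on the strand of the gene. Capitals mark matches, on either strand, to the GC box GGGCGG, to which factors of the SP/KLF family bind, to the CCAAT box, the site of NF-Y, and to the TATA box letters TATAAA. They lie at chr1:75317638-75317887 on the minus strand for *Dnpep*, chr2:3283962-3284211 on the plus strand for *Nmt2*, chr3:100922243-100922492 on the plus strand for *Trim45*, and chr7:139388859-139389108 on the plus strand for *Inpp5a*. The others lie at chr15:5116363-5116612 on the plus strand for *Rpl37*, chr8:72318812-72319061 on the plus strand for *Klf2*, chr11:49609429-49609678 on the plus strand for *Flt4*, chr17:73804591-73804840 on the plus strand for *Ehd3*, and chr14:31168642-31168891 on the minus strand for *Stab1*.
Dnpep: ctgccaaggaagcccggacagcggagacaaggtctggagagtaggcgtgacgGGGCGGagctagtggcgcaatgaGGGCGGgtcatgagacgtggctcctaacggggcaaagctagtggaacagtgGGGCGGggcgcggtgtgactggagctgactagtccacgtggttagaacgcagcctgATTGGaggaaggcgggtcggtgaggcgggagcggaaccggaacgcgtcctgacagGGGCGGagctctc
Nmt2: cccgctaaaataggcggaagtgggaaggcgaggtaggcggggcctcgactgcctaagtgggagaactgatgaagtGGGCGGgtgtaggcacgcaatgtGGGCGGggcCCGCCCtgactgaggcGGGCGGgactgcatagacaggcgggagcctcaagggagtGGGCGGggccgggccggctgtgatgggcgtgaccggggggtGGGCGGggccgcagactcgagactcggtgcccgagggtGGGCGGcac
Trim45: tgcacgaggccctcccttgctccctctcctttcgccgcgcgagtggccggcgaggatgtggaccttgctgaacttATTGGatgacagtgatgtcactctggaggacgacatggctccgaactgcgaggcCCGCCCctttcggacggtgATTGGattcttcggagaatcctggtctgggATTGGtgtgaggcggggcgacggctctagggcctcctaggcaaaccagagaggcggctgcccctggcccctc
Inpp5a: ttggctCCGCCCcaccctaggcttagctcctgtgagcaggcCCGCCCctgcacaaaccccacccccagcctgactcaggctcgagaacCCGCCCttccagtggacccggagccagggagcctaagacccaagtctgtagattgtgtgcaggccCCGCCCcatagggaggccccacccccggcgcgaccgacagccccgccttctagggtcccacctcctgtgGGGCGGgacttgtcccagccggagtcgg
Rpl37: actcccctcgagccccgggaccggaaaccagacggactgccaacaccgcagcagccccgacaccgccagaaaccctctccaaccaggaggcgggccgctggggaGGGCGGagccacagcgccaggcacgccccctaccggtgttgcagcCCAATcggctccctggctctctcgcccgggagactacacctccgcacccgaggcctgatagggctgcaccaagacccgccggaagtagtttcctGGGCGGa
Klf2: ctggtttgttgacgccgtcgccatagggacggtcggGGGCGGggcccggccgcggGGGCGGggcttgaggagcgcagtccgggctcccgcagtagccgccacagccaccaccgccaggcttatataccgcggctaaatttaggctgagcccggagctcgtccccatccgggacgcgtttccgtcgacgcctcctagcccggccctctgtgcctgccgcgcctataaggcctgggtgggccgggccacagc
Flt4: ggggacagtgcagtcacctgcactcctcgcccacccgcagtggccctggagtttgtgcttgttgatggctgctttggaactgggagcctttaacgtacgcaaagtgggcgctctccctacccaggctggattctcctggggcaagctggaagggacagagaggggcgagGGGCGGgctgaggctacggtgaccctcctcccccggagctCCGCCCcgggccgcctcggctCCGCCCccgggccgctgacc
Ehd3: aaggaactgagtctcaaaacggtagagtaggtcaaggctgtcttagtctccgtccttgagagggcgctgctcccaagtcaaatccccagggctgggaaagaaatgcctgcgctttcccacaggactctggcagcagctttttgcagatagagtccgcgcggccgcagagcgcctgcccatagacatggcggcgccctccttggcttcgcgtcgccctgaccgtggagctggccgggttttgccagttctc
Stab1: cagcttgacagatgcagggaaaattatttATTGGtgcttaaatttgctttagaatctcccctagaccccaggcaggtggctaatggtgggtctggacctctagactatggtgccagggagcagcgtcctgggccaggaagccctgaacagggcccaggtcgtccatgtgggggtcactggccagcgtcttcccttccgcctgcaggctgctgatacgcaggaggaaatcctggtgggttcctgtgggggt

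The 9 stretches differ in their CpG content and in the boxes they hold. The stretch of *Nmt2* held 7 GC boxes and no CCAAT box, and that of *Trim45* held 3 CCAAT boxes and 1 GC box. *Dnpep* held 4 GC boxes and 1 CCAAT box. *Ehd3* held neither box, with 16 CpGs. *Stab1* held only 5 CpGs, with a ratio of observed to expected CpG of 0.249, against 22 CpGs and a ratio of 0.934 at *Dnpep*. None of the 9 held TATAAA. The member covered all 250 bases at 8 of these genes and 223 of them at *Stab1*.

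Members were compact. Their median width was 927 bp, with an interquartile range of 677 to 1222 bp and extremes of 181 and 1999 bp. A member held exactly 1 peak of each library in 7574 cases, which was 89.3%. At least 2 peaks of replicate 2 were joined in 10.5% of members, against 67.1% of broad regions. The peaks of replicate 3 set the width. They covered a median of 926 bp of a member, while those of replicate 2 covered 453 bp. The limit of 2000 bp cut through a smooth slope of widths and not through a gap. The members just inside it were at *Arih1* (1999 bp), which encodes a ubiquitin ligase, *Luc7l2* (1998 bp), a splicing factor gene, *Arhgap12* (1997 bp), *Ccni* with *2010109A12Rik* (1995 bp), and *Arhgdib* (1993 bp). Regions just outside it were at *Rap2a* (2001 bp), *Rasa3* and *Phlpp1* (2002 bp each), and *Sertad1* (2003 bp). In replicate 3, the fold enrichment was 67.4 at *Arih1* and 91.8 at *Luc7l2* inside the limit, and 97.1 at *Rap2a* and 67.6 at *Sertad1* outside it, so the values on either side of the limit overlapped.

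**Figure D1:**
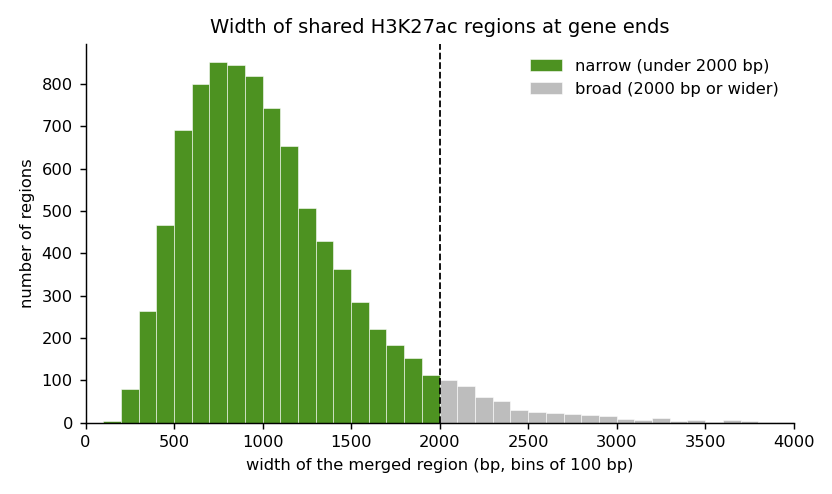
Width of the shared H3K27ac regions at the ends of protein-coding genes, in bins of 100 bp on the horizontal axis, with the number of regions on the vertical axis. Green bars are the 8479 members, grey bars the broad regions, the dashed line the limit of 2000 bp, and 15 broad regions of 4000 bp or more lie beyond the axis. The counts fall without a break across the limit.

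The narrowest members had low values in both libraries. The member at *Hspa5*, which encodes the chaperone BiP of the endoplasmic reticulum, was 181 bp wide, and its fold enrichment reached 4.74 and 4.30 in replicates 2 and 3, and its summits lay 987 and 972 bp after the start. The member at *Polr3gl*, a gene for an RNA polymerase III subunit, was 193 bp wide with values of 6.78 and 4.78. The member at *Mmachc*, which acts in cobalamin metabolism, was 194 bp wide with values of 6.10 and 4.88 and lay at the 3′ end. Over all members, width and fold enrichment moved together (Spearman's rho = 0.50 with replicate 3, a description over 8479 regions that share a library and its depth).

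The median fold enrichment of members was 14.2 in replicate 2 (interquartile range, 8.89 to 22.4) and 41.8 in replicate 3 (24.9 to 66.8). Members ranked high in both lists. The median member stood at percentile 69.2 of all peaks of replicate 2 and at percentile 88.8 of all peaks of replicate 3. Among members, 70.7% lay above the median peak of replicate 2 and 97.2% above the median peak of replicate 3. Broad regions had medians of 25.8 and 63.1. The 15212 shared regions away from gene ends had medians of 8.81 and 21.2 and a median width of 582 bp. The members thus lay between these 2 kinds of region in both libraries. The rule used the peaks that gave these values.

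The 2 libraries ordered the members much alike. Pearson's r between their fold enrichments was 0.868 and Spearman's rho was 0.875 over the 8479 members, which share their libraries and are not independent of each other. In these members, the fold enrichment of replicate 3 was a median of 2.81 times that of replicate 2. This did not hold over whole lists, where the median peak had 9.76 in replicate 2 and 8.89 in replicate 3. Members had to be called in both libraries, so the ratio describes only regions selected in this way. The value of replicate 3 was below that of replicate 2 in 91 members, or 1.07%. Only 1 member, at *Dnpep*, was among the 10 highest of both libraries, and 19.5% of members were within the top 10% of peaks in both lists.

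**Figure D2:**
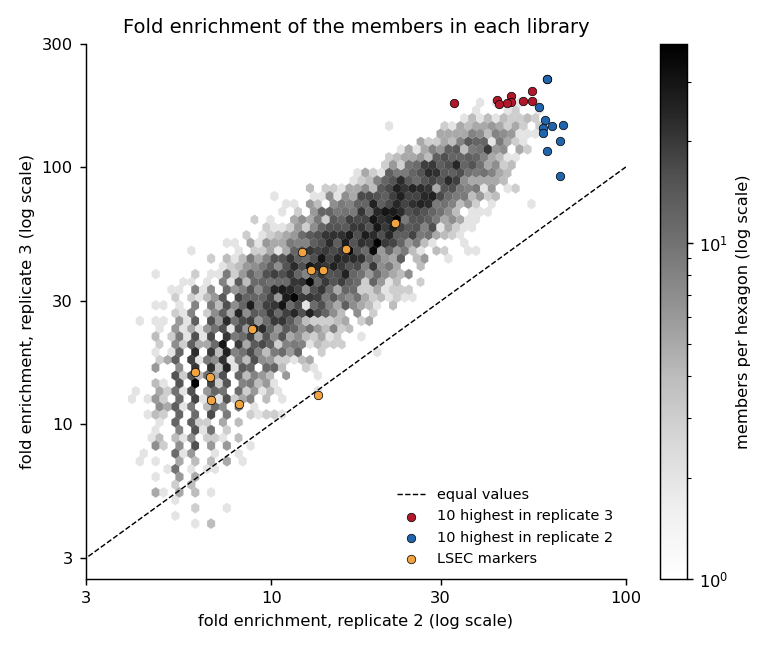
Fold enrichment of the 8479 members in replicate 2 (horizontal) and replicate 3 (vertical), both on log axes, as hexagons shaded by the number of members. Red and blue points are the 10 highest members of replicate 3 and of replicate 2 (*Dnpep*, in both, is drawn blue), orange points are the 11 LSEC markers with a member, and the dashed line marks equal values, above which nearly all members lie.

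The highest members of replicate 3 were at genes of varied roles. The member at *Dnpep*, an aspartyl aminopeptidase gene, reached 59.6 in replicate 2 and 219 in replicate 3, where it was the top peak of the whole list. The member at *Nmt2*, which encodes an enzyme that attaches myristate to proteins, had 54.2 and 197. *Trim45*, a tripartite motif gene, had 47.3 and 188. The promoter letters of these 3 genes and of *Inpp5a* are printed above, and each holds at least 1 GC box. *Inpp5a*, an inositol polyphosphate phosphatase gene, had 43.4 and 181. *Plekhf2*, which encodes an endosomal protein, had 54.2 and 179, and *Hsd17b12*, which acts in the elongation of very long chain fatty acids, had 51.3 and 179. The order of the last 2 was set only by position. *Tspan14*, a tetraspanin gene, had 47.4 and 178. *Usp28*, a deubiquitinase gene, had 46.1 and 177. The opsin gene *Opn3* had 32.7 and 176, the lowest replicate 2 value of the 10. The member that *Srd5a1*, a steroid reductase gene, shared with *Nsun2*, an RNA methyltransferase gene, had 43.8 and 175.

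The highest members of replicate 2 were other regions, apart from *Dnpep*. The member between *Cdca2*, which encodes a chromatin-bound partner of protein phosphatase 1, and *Kctd9* had 66.4 in replicate 2 and 145 in replicate 3. *Dact3*, a gene for a regulator of WNT signaling, had 65.1 and 126. The member at *Plag1*, a zinc finger transcription factor gene, and *Chchd7* had 65.1 and 91.7. Replicate 3 ranked that member at percentile 98.2 of its own list, so it was still among the strongest peaks there. *Ripk2*, which encodes a kinase that links NOD receptors to NF-κB, had 61.7 and 144. The member at the RNA-binding protein gene *Khsrp* and the carrier gene *Slc25a41* had 59.6 and 115. *Pgrmc2*, which encodes a heme-binding membrane protein, had 59.0 and 153. In all of these, the value of replicate 3 exceeded that of replicate 2. *Rmnd5a*, a ubiquitin ligase subunit gene, had 58.3 and 141. *Metap1*, a methionine aminopeptidase gene, had 58.1 and 135. *Leprot*, which encodes an endosomal protein made from the leptin receptor locus, had 56.9 and 171.

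Most members sat on the start of a gene. Strand was known from the promoter table for every gene touched by 6733 members, and 6392 of these, or 94.9% (95% Wilson interval, 94.4% to 95.4%, which covers counting error only), lay within 1 kb of a 5′ end. In 6214 members, 73.3% of all, both summits lay within 1 kb of a start in the promoter table. The positions of members given next are over these 6214 only. The median summit was 44.5 bp before the start in replicate 2 and 46 bp before it in replicate 3. Within 150 bp of the start lay 80.2% of summits in replicate 2 and 81.6% in replicate 3. The 2 libraries placed the summit of the same member a median of 26 bp apart. The member lay over the start in 95.8% of these cases, wholly before it in 2.09%, and wholly after it in 2.08%. In the 2 libraries, members over the start had medians of 15.9 and 46.6, those before it had 7.46 and 19.2, and those after it had 6.78 and 14.9. In 360 broad regions, the median summit was 86 bp and 78 bp before the start, and 61.4% and 65.6% of summits were within 150 bp of it.

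**Figure D3:**
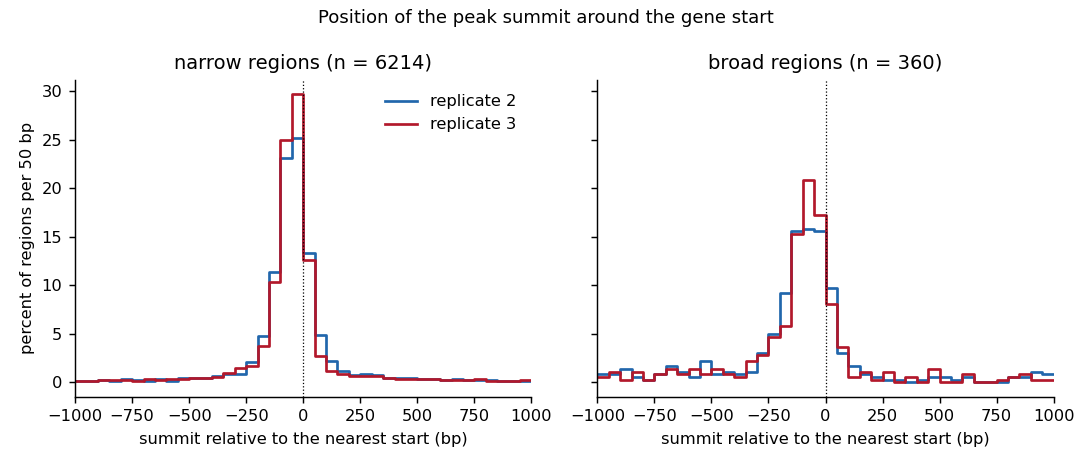
Position of the peak summit relative to the nearest start in the promoter table (horizontal, bp, negative before the start), as the percentage of regions per 50 bp, for narrow members (left) and broad regions (right), in replicate 2 (blue) and replicate 3 (red). Both libraries peak just before the start, and the broad regions have lower peaks and longer flanks.

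Some members stood apart from this pattern. Several of the highest members of replicate 3 had summits further before the start. At *Trim45* they lay 284 and 302 bp before it in replicates 2 and 3, outside the 250 bases shown above. At *Nmt2* they lay 258 and 198 bp before the start, whereas at *Dnpep* they lay 164 and 71 bp before it. The LSEC marker *Flt4*, which encodes the receptor for VEGF-C, had its summits 546 and 557 bp after the start, although its member also covered the 250 bases shown above. In contrast, the summits at *Klf2* lay 143 and 127 bp before the start, and those at *Stab1* lay 37 and 3 bp after it. A total of 341 members lay only at a 3′ end. They were narrower and weaker, with a median width of 589 bp and fold enrichments of 8.68 and 21.8, against 956 bp, 14.9, and 44.3 in the 5952 members only at a 5′ end. The highest of them in replicate 3 were at *Gm46933* (33.2 in replicate 2 and 119 in replicate 3), *Fam120a* (19.5 and 98.3), *Plekhs1* (19.0 and 85.3), and *Ttc7b* (23.2 and 81.2), which were chosen after their values were seen. Only *Gm46933* among these 4 had a start of another gene within 1 kb of its summits. An end of a long noncoding RNA gene lay within 1 kb of 3.23% of the members only at a 3′ end and of 12.8% of those only at a 5′ end. The latter are wider and can reach more ends, and the part of width in this difference was not tested.

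Many members touched more than 1 gene. Most members (6919) touched the end of 1 protein-coding gene, 1516 touched 2 genes, and 44 touched 3 or more. Strand was known for both genes in 1132 of the members that touched 2. In 737 of them (65.1%), the 5′ ends of 2 genes on opposite strands lay within 1 kb of the member. Whether these genes pointed away from each other was not checked. A 5′ end met a 3′ end in 356, both ends were 3′ in 23, and both were 5′ on the same strand in 16. These 737 members had a median width of 1096 bp and fold enrichments of 18.3 in replicate 2 and 53.1 in replicate 3. The 5190 members at a single 5′ end had 931 bp, 14.6, and 42.7. A wider region can reach more gene ends within 1 kb, so part of the difference may be built into the grouping. An example of the 737 is the member at *Mrpl47*, a mitochondrial ribosomal protein gene, and *Ndufb5*, which encodes a subunit of respiratory complex I, with 41.3 and 113. The member with the most genes touched 5 (*Gm20517*, *Usp49*, *Tomm6*, *Frs3*, and *Prickle4*), with 17.7 and 67.7 over only 899 bp. The others of these members touched 3 genes each and were tied. Among them, taken only for their low start coordinate, were a member at *Sfi1*, *Gm51877*, and *Eif4enif1* (6.33 and 10.1) and a member at *Leng8*, *Leng9*, and *Cdc42ep5* (8.13 and 26.0).

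Members touched 9125 of 21887 protein-coding genes, which was 41.7% (95% Wilson interval, 41.0% to 42.3%). This share is the background for every gene list below. A broad region touched 605 genes, or 2.76%, and 86 genes had both a member and a broad region. A further 2148 genes, or 9.81%, had a region of replicate 3 but no shared region at an end. Only 4 genes had a region of replicate 2 alone. The lists were chosen with earlier results on these data known, no list was tested, and the counts describe only these 2 libraries. Where a gene had several members, the one with the highest replicate 3 value was used. Its median over the 9125 genes was 15.6 in replicate 2 and 45.6 in replicate 3.

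Genes of the core cell machinery carried members far above that background share. Of the 78 cytosolic ribosomal protein genes, 74 (94.9%) had a member. The highest was *Rpl37* with 43.3 in replicate 2 and 148 in replicate 3, followed by *Rpl15* (39.3 and 124). The lowest was *Rpl4* with 8.54 and 14.4. The gene at the other side of the *Rpl37* member was *Card6*, and *Rpl15* shared its member with *Nkiras1*. Of the rest, *Rpl7* had a broad region of 2376 bp, *Rps2* and *Rpl19* had a region of replicate 3 alone, and *Rpl17* had none. The median over the list was 19.7 in replicate 2 and 53.8 in replicate 3, against 15.6 and 45.6 over all genes with a member.

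The other lists of core machinery had similar shares. A member was found at 49 of 50 spliceosome genes (98.0%), 35 of 37 aminoacyl-tRNA synthetase genes (94.6%), 30 of 32 proteasome genes (93.8%), and 55 of 59 genes of RNA polymerase II, its general factors, and Mediator (93.2%). The spliceosome gene without a member, *Prpf4*, had a broad region of 2085 bp. The median fold enrichment was 14.2 and 39.3 for mitochondrial ribosomal protein genes, below that over all genes with a member in both libraries. In replicate 2 it was also below for the nuclear pore (15.4) and oxidative phosphorylation (15.56). The share with a member was 90% in DNA repair (45 of 50), 87.2% in coat and exocyst trafficking (41 of 47), 87.2% in mitochondrial ribosomal proteins (68 of 78), 86.7% in oxidative phosphorylation (65 of 75), and 77.8% in the nuclear pore (21 of 27). Among the highest members in replicate 3 were *Atm*, the kinase that signals DNA breaks (26.0 and 151), *Sec23a*, a subunit of the COPII coat (44.7 and 145), and *Cycs*, which encodes cytochrome c (42.7 and 142). *Plrg1* of the spliceosome (48.8 and 141) and *Med26* of Mediator (38.4 and 137) were also high. *Nup107* of the nuclear pore had 39.99 and 126, *Lars* of the synthetases had 34.2 and 122, *Mrpl41* had 33.0 and 119, and *Psmc6* of the proteasome had 33.9 and 112. The lowest members of these lists were *Mrpl3* (4.74 and 8.85), *Gtf2h2* (6.78 and 13.6), *Fancg* (6.78 and 14.002), *Snrpf* (10.2 and 15.4), *Tars2* (7.56 and 17.1), *Sec13* (6.78 and 17.6), *Psmc5* (11.6 and 17.997), and *Uqcrh* (19.5 and 19.3).

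**Figure D4:**
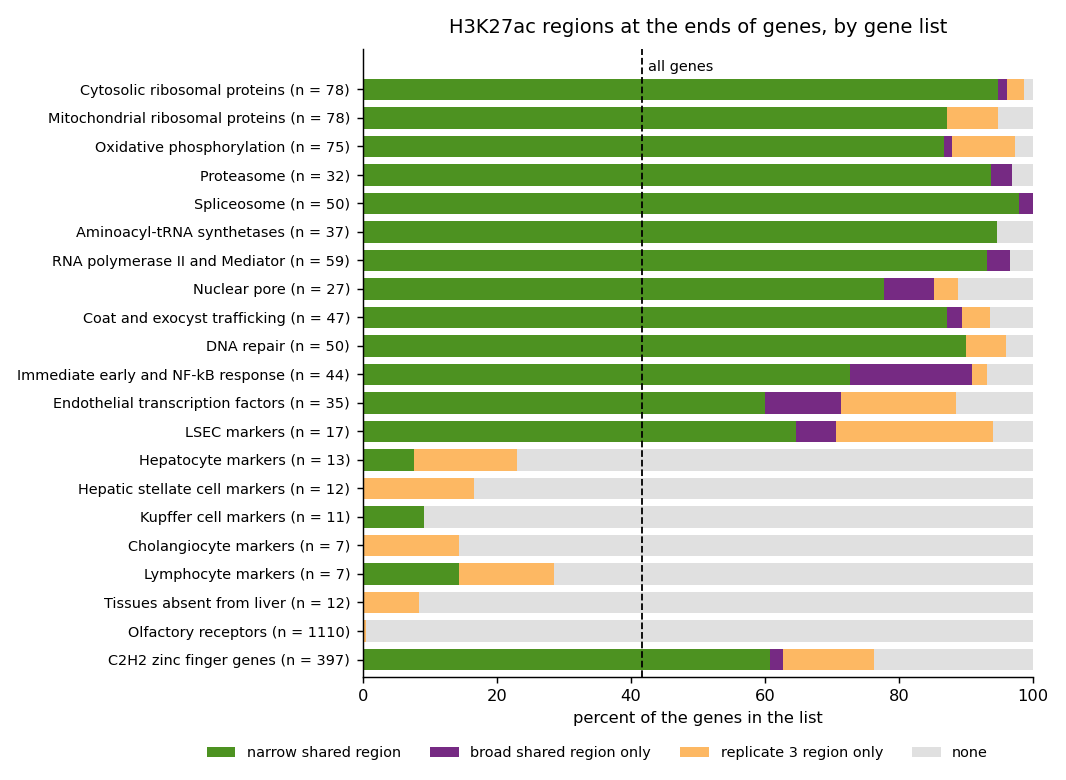
Share of the genes of each list (horizontal, percent, n in the row label) with a narrow member at an end (green), with a broad region only (purple), with a region of replicate 3 only (orange), or with none (grey). The dashed line is the 41.7% of all protein-coding genes with a member, and the 10 lists of core machinery lie to its right, whereas the markers of other liver cells and the olfactory receptors lie to its left.

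Of 17 LSEC markers, 11 (64.7%) had a member, with a Wilson interval of 41.3% to 82.7% that includes the background of 41.7%. The medians over these 11 genes were 12.2 in replicate 2 and 23.3 in replicate 3, below those of each list of core machinery. The highest was *Kdr*, which encodes the main receptor for VEGF, with 22.4 and 60.3. That member lay at the 3′ end of *Kdr* and not at its promoter. *Ehd3*, an endocytic protein gene, had 16.2 and 47.9, and *Flt4* had 12.2 and 46.5. *Gpr182*, an atypical chemokine receptor gene, had 14.04 and 39.8, and *Lyve1*, the hyaluronan receptor gene, had 12.9 and 39.5. The scavenger receptor gene *Stab1* had 8.81 and 23.3. The others had lower values in replicate 3. They were *Dnase1l3* (6.10 and 16.0), *Oit3* (6.71 and 15.2), *Pecam1* (13.6 and 13.0), the Fc receptor gene *Fcgr2b* (6.78 and 12.4), and *Gata4*, a transcription factor that specifies liver sinusoids (8.13 and 12.0). *Pecam1* was the 1 marker with a lower value in replicate 3 than in replicate 2. *Cdh5*, the VE-cadherin gene, had a broad region of 2839 bp. *Stab2*, *Tek*, *Mrc1*, and *Clec4g* had regions of replicate 3 alone, with values of 5.86, 10.0, 4.15, and 4.56, and *Cd36* had no region. For these 4, members were missing because replicate 2 had no peak there. With replicate 3 alone, the share over the whole list was 94.1%, against 52.1% of all genes.

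Few markers of other cell types had a member. The counts were 1 of 13 for hepatocytes, 0 of 12 for HSCs, 1 of 11 for Kupffer cells, 0 of 7 for cholangiocytes, 1 of 7 for lymphocytes, 0 of 12 for tissues absent from liver, and 0 of 1110 for olfactory receptor genes. Such lists are short, and a count of 0 of 12 has a Wilson interval that reaches 24.2%. The interval for lymphocytes (2.57% to 51.3%) includes the background of 41.7%. Those for Kupffer cells, cholangiocytes, and hepatocytes reach 37.7%, 35.4%, and 33.3%. With replicate 3 alone, the shares were 23.1% for hepatocytes, 16.7% for HSCs, 9.09% for Kupffer cells, and 14.3% for cholangiocytes. They were 28.6% for lymphocytes, 8.33% for tissues absent from liver, and 0.541% for olfactory receptors, against 52.1% of all genes. The hepatocyte marker was *Trf*, the transferrin gene, with 15.9 in replicate 2 and 78.8 in replicate 3. Which end of *Trf* was touched is not known, and no hepatocyte marker had a member with a window of 0.5 kb. The Kupffer cell marker was *Cd68* (9.37 and 16.0), whose member also touched *Eif4a1*, a translation initiation factor gene. The lymphocyte marker *Cd79a* (10.2 and 13.3) shared its member with *Arhgef1* and was touched at the 3′ end. The defining genes *Alb*, *Ttr*, *Hnf4a*, *Pdgfrb*, and *Pdgfra* had no shared region and no region of replicate 3, whereas *Apoa1* (11.4), *Apob* (11.4), *Col1a1* (12.0), and *Acta2* (5.61) had a region of replicate 3 alone. Whether chromatin of other liver cells contributed to these regions was not tested.

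Transcription factors of endothelium and rapid response genes were less uniform. Of 35 endothelial transcription factor genes, 21 (60%) had a member, 4 had a broad region only, and 6 had a region of replicate 3 alone. *Klf2*, the factor induced by laminar shear stress, was far above the rest with 44.7 in replicate 2 and 113 in replicate 3, followed by *Tcf4* (30.5 and 76.5) and *Epas1*, which encodes HIF-2α (24.4 and 67.0). *Gata6* was lowest, with 4.74 and 7.16. *Klf4*, *Tal1*, and *Sox7* were among the 4 with a broad region only. Of 44 immediate early and NF-κB response genes, 32 (72.7%) had a member, 8 had a broad region only, and 6 of the 32 had both. The share with a member depended on the settings. It was 45.5% under a width of 1500 bp, where that of all genes was 37.0%, and 88.6% with replicate 2 alone, where that of all genes was 43.3%. After *Klf2*, the highest were *Ier5* (27.5 and 89.7) and *Nfkbie*, an inhibitor of NF-κB (27.1 and 83.5). The lowest was *Vcam1*, the adhesion molecule gene, with 7.46 and 13.7. In this list, *Ier3* (5089 bp), *Junb* (4123 bp), *Klf4* (3617 bp), *Egr1* (3191 bp), and *Nfkbia* (2916 bp) were among the 8 with a broad region only, against 2.37% of all genes. Members at *Jun*, *Zfp36*, and *Klf6* lay at the 3′ end of genes that also had a broad region.

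Among 20 genes that the study names, 6 (30%) had a member, with a Wilson interval of 14.5% to 51.9% that includes the 41.7% of all genes. With replicate 3 alone, 65% had a narrow region, where the share of all genes was 52.1%. *Ccl2* (12.3 in replicate 2 and 56.3 in replicate 3) and *Cxcl1* (19.5 and 48.7) encode chemokines induced by NF-κB. *Lyve1*, *Stab1*, and *Pecam1* are given above. *Cd34* had 10.8 and 25.7, at its 3′ end. *Col4a1* and *Col4a2* had no member, only regions of replicate 3 with values of 6.82 and 7.64 at their ends. Each value is that of the highest such region of the gene, and the values come from different regions. The paper describes a bidirectional promoter for both genes, and which end each region touched is not given here. The putative enhancers that the paper names were not examined.

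Genes whose symbol is *Zfp* and a number, taken here as C2H2 zinc finger genes, fell between these lists. The list was made by symbol alone. It thus also holds *Zfp36* of the response list and leaves out C2H2 genes with other names. A member was found at 241 of 397 *Zfp* genes (60.7%, 55.8% to 65.4%), with medians of 13.1 and 38.4. A further 54 had a region of replicate 3 alone, and 94 had none. By chromosome, the share of genes with a member ran from 35.5% on chromosome 14 to 51.5% on chromosome 8 among autosomes. It was 26.7% on chromosome X (258 of 966) and 1.56% on chromosome Y (4 of 256).

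The letters of the promoter were not used by the rule. A stretch of 300 bases, 250 before the start and 50 from it, was in the table for 17492 of the 21887 genes and for 7415 of the 9125 genes with a member. A promoter was called CpG-rich when its GC content was at least 50% and its ratio of observed to expected CpG at least 0.6. Of promoters with a member, 75.2% were CpG-rich, with a median GC content of 61.3% and a median CpG ratio of 0.798. The share was 83.8% with a broad region only, 45.1% with a region of replicate 3 alone, and 16.5% with none of these. Over all promoters in the table it was 45.8%.

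The search covered 11 motifs, each as fixed letters on both strands. The GC box GGGCGG was in 68.1% of promoters with a member and in 46.3% of all promoters, and the CCAAT box in 41.1% and 39.2%. TATAAA was in 6.46% and 13.3%, and on the strand of the gene, starting 40 to 20 bases before the start, in 1.02% and 2.83%. The ETS letters CCGGAAGT were in 9.84% and 5.28%, the YY1 letters AAGATGGCG in 3.68% and 1.92%, and the cyclic AMP response element TGACGTCA in 3.78% and 2.33%. Of these, only TATAAA had a lower share in promoters with a member, and the share of the CCAAT box was nearly the same. The NRF1 letters, GCGCA followed directly by their reverse complement, were in 2.66% and 1.33%. The palindrome of TCTCG followed directly by its reverse complement was in 1.28% and 0.726%, and the E-box CACGTG in 11.0% and 7.91%. The AP-1 letters TGACTCA were in 3.05% and 4.56%. The NF-κB letters GGGAC followed directly by TTTCC were in 12 promoters with a member, 0.162%, and in 0.143% of all. CACGTG and TGACGTCA are palindromes and no motif of the 11 holds another, but they share letters with CpG-rich sequence, and a match is not a binding site.

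Among genes with a member, the letters differed with the strength of the peak. The 7415 genes were divided into 4 groups of near equal size by the fold enrichment of their member in replicate 3. Of these genes, 7100 had a member at the 5′ end. Members only at a 3′ end were weaker, and the groups were not formed without them, so their part in the order was not tested. From the weakest to the strongest group, CpG-rich promoters were 60.2%, 72.4%, 81.2%, and 87.2%. The CCAAT box was in 31.9%, 35.1%, 43.3%, and 54.1%, and the GC box in 58.8%, 64.2%, 70.5%, and 78.8%. Both shares were higher in each stronger group, while that of TATAAA was lower, at 8.32%, 7.88%, 5.47%, and 4.16%. Groups by the fold enrichment of replicate 2 gave the same order, with the CCAAT box in 32.9%, 35.1%, 41.4%, and 55.2%. By width, the CCAAT box showed the reverse order, from 43.2% in the narrowest through 42.2% and 40.1% to 38.8% in the widest group, whereas CpG-rich promoters were 61.5% of the narrowest and 82.99% of the widest group. The ETS letters were in 8.26%, 11.2%, 11.0%, and 8.91% of the replicate 3 groups and followed no such order. The median GC content of the promoter moved with these groups, at 59.3%, 60.7%, 61.3%, and 64.0% from the weakest to the strongest in replicate 3, and its part in the order of the motifs was not tested.

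**Figure D5:**
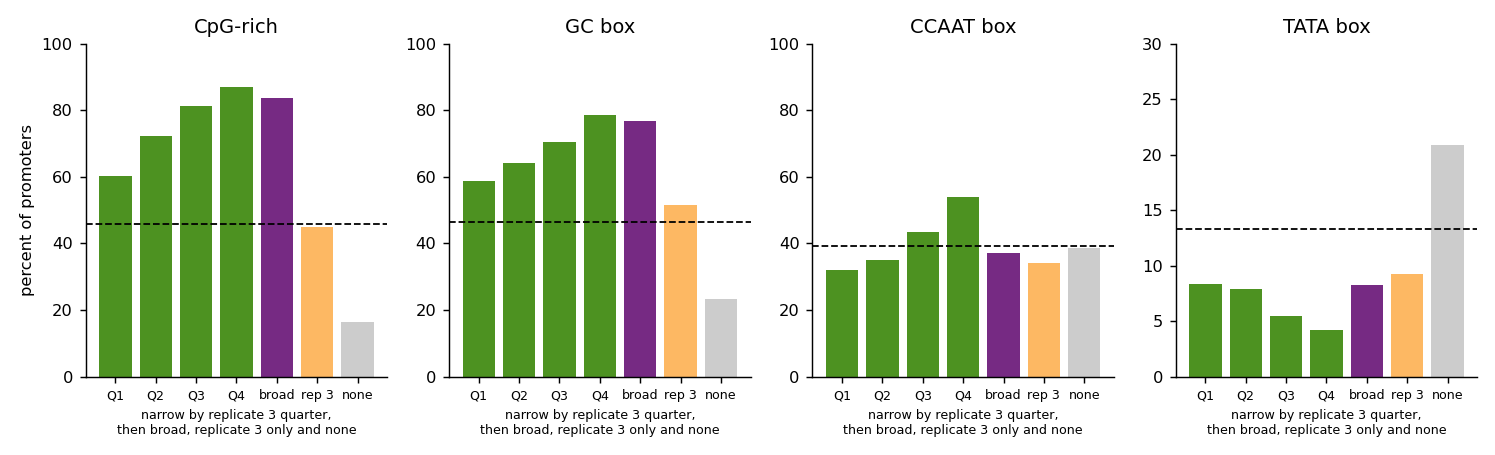
Share of promoters (vertical, percent) that are CpG-rich or hold the GC box, the CCAAT box, or TATAAA, for genes with a member in 4 groups of replicate 3 fold enrichment from weakest (Q1) to strongest (Q4) in green, then for genes with a broad region only (purple), a region of replicate 3 only (orange), and none (grey). The dashed line is the share over all 17492 promoters, and the vertical axis of the TATAAA panel ends at 30%. The CCAAT box stands at 31.9% in Q1 and 54.1% in Q4.

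The gap from a member to the nearest other shared region had a median of 13914 bp. It was under 5000 bp for 28.2% of members, under 1000 bp for 12.8%, and under 200 bp for 5.38%. A wider merge would join the closest of these into larger regions. No gap is given for other kinds of region, so whether members were more or less clustered than those was not tested.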

How the data were processed

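H3K27ac ChIP-Seq of isolated mouse LSECs was analysed from the 2 deposited lists of peaks, 1 per library. The submitters' processing notes name cutadapt, BWA 0.7.17, Picard 1.67, MACS2 2.0.10, bedtools 2.27.1, and the build mm10 (GRCm38). The role of the inputs in peak calling was not given in the sources used here. Per peak, the authors deposited a fold enrichment (a ratio of signal to background), the −log10 p-value and −log10 q-value, a score made from the q-value, and the summit. The fold enrichment and the positions were used, and the −log10 q-value served 1 alternative. The depth of the libraries is unknown, and Wilson intervals (95%) describe counts of regions or genes only.

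Peaks were merged at an overlap of 1 bp. The highest peak of a library in a region gave its fold enrichment and summit. Gene bodies and promoter letters came from RefSeq tables of GRCm38.p6, and the strand came from the promoter table. The members and the 22 gene lists were chosen with earlier results of these data known. Named genes are the 10 highest members per library, the 5 on each side of the width limit, the 3 narrowest, the 3 with the most genes, the 3 highest and the lowest per list, all markers with a member, and the genes that the study names, except for a few that are not reported here. The merging and the motif search were tested on simulated data. Alternatives covered the q-value, the number of peaks, the overlap, the window, the width limit, and each library alone. Tables were handled with pandas 2.3.3 and numpy 2.4.6 in Python 3.11.15, intervals came from scipy 1.17.1, and figures were drawn with matplotlib 3.10.9.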

Additional observations from a re-analysis of the deposited data

How the results depend on the processing

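No paired analysis was possible because no result comes from a test: the peak lists cover 1 condition, and the inputs, which share the replicate numbers, were not analysed here. The number of members was 8479 and stayed within 1.5 times of that under 7 of 9 alternatives. It was 4125 when a peak of each library had to overlap by at least 50% of both (peaks covered a median of 453 bp of a member in replicate 2 and 926 bp in replicate 3, and the cause was not tested), and 9918 to 14179 with a single library. The share of protein-coding genes with a member, 41.7% as reported, was 40.5% with a −log10 q of at least 5, 40.6% with equal numbers of peaks, 21.6% with the 50% overlap, 39.7% with a window of 0.5 kb, 45.6% with 2.5 kb, 37.0% under 1500 bp, 43.8% under 3000 bp, and 43.3% to 52.1% with a single library. The median fold enrichment in replicate 2 (14.2) took the values 14.9, 14.9, 17.6, 14.9, 13.3, 13.6, and 14.9 under the same 7 alternatives in that order, and that in replicate 3 (41.8) took 43.5, 43.6, 49.5, 43.7, 38.0, 39.2, and 42.9. With a single library they were 13.6 in replicate 2 and 20.5 in replicate 3. CpG-rich promoters were 76.9% when only members at the 5′ end counted. The 10 lists of core machinery stayed above the share of all genes under every alternative, at 44.4% to 62.5% with the 50% overlap. With replicate 3 alone, 94.1% of LSEC markers had a narrow region, against 52.1% of all genes. The shares of the other markers were also higher than with both libraries, or equal. Hepatocyte markers stood at 23.1% with a window of 2.5 kb and at 0 of 13 with 0.5 kb. With 2 libraries of unknown depth, counting error in reads cannot be given.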

Other observations

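In 91 members, replicate 2 had the higher fold enrichment, while over all 8479 members the value of replicate 3 was a median of 2.81 times that of replicate 2. The 5 with the largest ratio, chosen after their values were seen, were at *Clptm1* (7.20 in replicate 2 and 2.94 in replicate 3), *Gm29975* (6.76 and 3.34), *Mllt3* (6.78 and 3.61), *Pirb* (5.49 and 3.01), and *Prdx1*, a peroxiredoxin gene (5.21 and 2.89). In replicate 3, all 5 were within the lowest 2.18% of peaks by fold enrichment. *Clptm1*, *Gm29975*, and *Pirb* were touched at the 3′ end.

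Noncoding genes lay near some members. An end of a long noncoding RNA gene was within 1 kb of 1036 members (12.2%) and of 21.7% of broad regions, whose greater width can reach more ends. An end of a microRNA gene was within 1 kb of 70 members, and no count over other regions is given for comparison. A gap of under 5000 bp to the nearest other shared region was found for 2391 members, or 28.2%.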
